A study of Arabidopsis thaliana with 6 samples.

Results

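The raffinose synthase family and the galactinol synthases GOLS1 to GOLS4 of Arabidopsis thaliana were described in leaves grown at low and at normal CO2. The set held 9 genes, taken by locus from the 26402 genes of the deposited table, and all 9 were found. It consisted of 5 genes of the raffinose synthase family (DIN10, SIP1, SIP2, RS5 and STS) and 4 galactinol synthase genes. The families were chosen by family name with earlier results of these data known, among them the RPKM of DIN10 in both columns. The levels and ratios below are therefore a description, and none of them is tested.

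RNA came from whole leaves of wild type plants of the Columbia (Col-0) ecotype, 4 weeks old. They were grown on soil at 21 °C and 70% relative humidity with 16 h of light and 8 h of dark. The normal CO2 group (3 samples) grew at 380 ppm CO2 and the low CO2 group (3 samples) at 100 ppm, and no other difference between the groups is labelled. The table gave 1 RPKM value per gene and CO2 level (reads per length of gene model, set against sequencing depth), and none per replicate, so no SD and no test of the CO2 effect can be given.

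Galactinol synthase joins myo-inositol to galactose from UDP-galactose, which is the first committed step towards the raffinose family of sugars. Raffinose synthase then moves the galactose of galactinol onto sucrose, and stachyose synthase adds a further galactose to raffinose. In Arabidopsis leaves galactinol and raffinose are best known for building up under cold, drought and heat. Some proteins of the raffinose synthase family act the other way, as alkaline alpha-galactosidases that split raffinose.

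The families lay on opposite sides in these data. Summed over GOLS1 to GOLS4, galactinol synthase stood at 254.6 RPKM at 380 ppm CO2 and 18.2 RPKM at 100 ppm. The sum was 14.0-fold lower at low CO2, with a 95% interval of 12.7 to 15.5 from the summed reads. Summed over its 5 genes, the raffinose synthase family stood at 139.7 RPKM at 380 ppm CO2 and 1014 RPKM at 100 ppm. That sum was 7.26-fold higher, and the ratio of its summed reads was 7.10 (6.94 to 7.27). Such intervals cover counting error only and compare these columns, not the conditions. Whole leaves mix cell types, so fewer cells of a type and less RNA per cell cannot be told apart. The higher sum of the raffinose synthase family came from DIN10 and SIP2. RS5, the family's known leaf raffinose synthase, was lower at low CO2, as were the galactinol synthase genes.

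The 250 bases before the annotated start of each gene show what the members with the clearest differences carry in front of their transcripts. The sequences are from the RefSeq annotation of TAIR10.1, matched by locus, and run from the farthest base to the last base before the start. Coordinates are left out because the build behind the table is not given in the sources used here. Capitals mark matches on either strand to 5 motifs: the G-box CACGTG, the core of the drought and cold element CCGAC, the heat shock element GAANNTTC, the sugar-related TATCCA and the evening element AAAATATCT. No matches overlapped in these windows. The windows of the 4 members that were at least 2-fold lower at low CO2 come first, and those of the 2 that were at least 2-fold higher follow.
GOLS1: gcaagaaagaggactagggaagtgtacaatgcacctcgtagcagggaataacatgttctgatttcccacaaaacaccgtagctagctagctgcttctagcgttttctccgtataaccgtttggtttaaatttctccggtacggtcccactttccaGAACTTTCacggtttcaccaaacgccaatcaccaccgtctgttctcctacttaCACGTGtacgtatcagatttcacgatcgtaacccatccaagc
GOLS2: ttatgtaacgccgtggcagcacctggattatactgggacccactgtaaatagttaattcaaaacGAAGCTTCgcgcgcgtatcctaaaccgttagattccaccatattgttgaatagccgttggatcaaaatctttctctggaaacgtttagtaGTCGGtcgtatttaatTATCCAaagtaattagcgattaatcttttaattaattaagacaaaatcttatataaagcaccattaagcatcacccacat
GOLS3: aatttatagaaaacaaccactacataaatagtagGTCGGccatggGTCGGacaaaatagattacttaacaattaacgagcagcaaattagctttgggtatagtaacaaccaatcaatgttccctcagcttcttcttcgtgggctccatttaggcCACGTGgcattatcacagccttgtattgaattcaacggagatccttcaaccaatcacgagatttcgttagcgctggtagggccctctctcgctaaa
RS5: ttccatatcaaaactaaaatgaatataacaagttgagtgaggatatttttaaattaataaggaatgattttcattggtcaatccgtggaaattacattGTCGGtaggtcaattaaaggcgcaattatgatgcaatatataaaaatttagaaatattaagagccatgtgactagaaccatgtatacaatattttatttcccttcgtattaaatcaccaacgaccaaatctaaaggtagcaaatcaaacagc
SIP2: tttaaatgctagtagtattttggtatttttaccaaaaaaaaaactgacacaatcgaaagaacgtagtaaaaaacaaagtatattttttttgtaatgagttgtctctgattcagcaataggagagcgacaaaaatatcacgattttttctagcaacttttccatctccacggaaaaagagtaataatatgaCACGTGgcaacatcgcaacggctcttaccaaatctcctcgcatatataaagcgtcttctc
DIN10: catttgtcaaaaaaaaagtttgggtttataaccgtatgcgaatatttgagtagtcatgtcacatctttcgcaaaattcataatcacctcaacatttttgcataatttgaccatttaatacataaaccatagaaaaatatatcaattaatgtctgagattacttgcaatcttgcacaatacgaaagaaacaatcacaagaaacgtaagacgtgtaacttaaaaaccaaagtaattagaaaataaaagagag

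GOLS1 lies on the minus strand of chromosome 2, GOLS2 and GOLS3 on the plus strand of chromosome 1, RS5 and DIN10 on the plus strand of chromosome 5, and SIP2 on the minus strand of chromosome 3. The window of GOLS1 held a heat shock element, GAACTTTC, from 95 to 88 bases before the start, and a G-box from 42 to 37. The window of GOLS2 held a heat shock element, GAAGCTTC, from 186 to 179 bases before the start, the drought and cold core from 96 to 92, and TATCCA from 80 to 75. GOLS3 had the drought and cold core at 2 places, from 216 to 212 and from 205 to 201 bases before the start, and a G-box from 96 to 91. RS5 had the drought and cold core from 152 to 148 bases before the start.

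SIP2, like GOLS1 and GOLS3, had a G-box, from 60 to 55 bases before the start, and the window of DIN10 matched none of the 5 motifs. SIP1, STS and GOLS4 also matched none. Among 25792 windows of the same length, 6.59% held the G-box, 11.9% the drought and cold core, 9.43% the heat shock element, 13.7% TATCCA and 2.43% the evening element. A match to these letters is a description and not a shown binding site, and a window without one says nothing about the factors that bind there.

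DIN10 (AT5G20250), a dark-inducible gene known from sugar-starved leaves, stood at 5.57 RPKM at 380 ppm CO2 and 736 RPKM at 100 ppm. At low CO2 it was 132-fold higher, with a 95% interval of 118 to 148 from the reads behind the values. The reads were recovered from the RPKM values and numbered 318 at normal CO2 and 36178 at low CO2. Its log2 difference of 6.81 ranked number 1 upward of the 16563 genes whose mean over both columns reached 1 RPKM. By level it moved from rank 13233 in the table, near the middle, to rank 174. Its share of all reads was 0.00125% at 380 ppm and 0.165% at 100 ppm CO2 (exact interval 0.164 to 0.167%).

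SIP2 (AT3G57520), which encodes an alkaline alpha-galactosidase that acts on raffinose, was well expressed at both CO2 levels. It stood at 118 RPKM at 380 ppm CO2 and 274 RPKM at 100 ppm, 2.31-fold higher (2.25 to 2.38). RS5 (AT5G40390), the enzyme that leaves need to make raffinose under stress, had 14.4 RPKM at 380 ppm CO2 and 4.16 RPKM at 100 ppm. It was 3.45-fold lower (2.97 to 4.03). The reference also lists SIP1 as the symbol of this locus, and it is called RS5 here to keep it apart from AT1G55740.

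SIP1 (AT1G55740), a seed imbibition protein gene, was near the bottom of the family at 1.43 RPKM at 380 ppm CO2 and 0.99 RPKM at 100 ppm. Its ratio of 0.694 had an interval of 0.477 to 1.00, from 82 and 49 reads, so these depths leave room for no difference as well as for a 2-fold one. STS (AT4G01970), the stachyose synthase gene, had 0 reads at 380 ppm CO2 and 2 reads at 100 ppm. Both are under a floor of 3 reads, and no fold is given. In RPKM that floor is 0.0449 at normal CO2 and 0.0522 at low CO2.

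**Figure D1:**
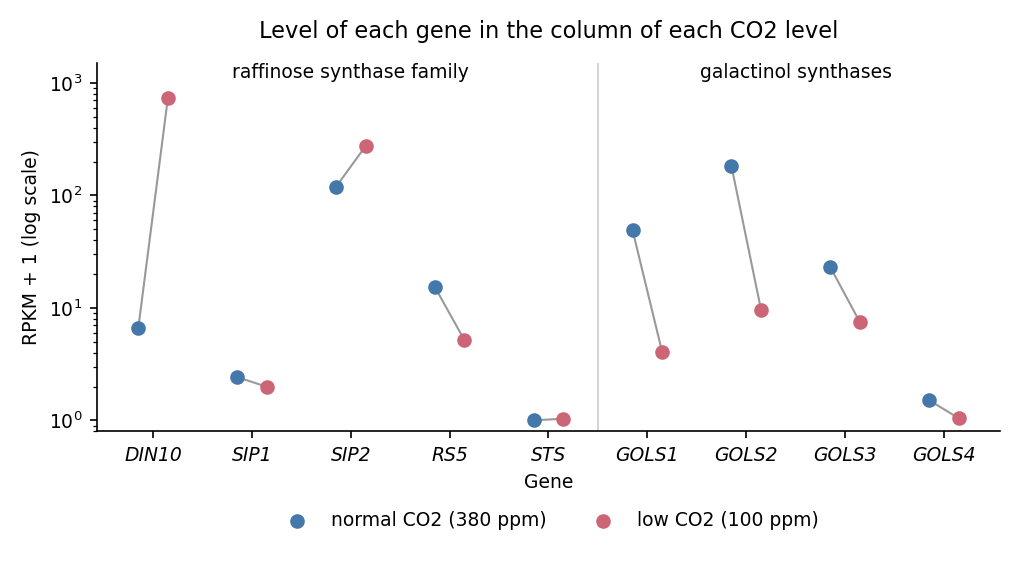
RPKM + 1 on a log axis for each of the 9 genes, with 1 point for the normal CO2 column and 1 for the low CO2 column, joined by a line. DIN10 goes from 5.57 to 736 RPKM and SIP2 from 118 to 274 RPKM, whereas RS5 and the galactinol synthases lie lower at low CO2.

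GOLS2 (AT1G56600), a galactinol synthase known from drought and heat responses, had the highest level of all 9 genes at normal CO2. It stood at 184 RPKM there and at 8.64 RPKM at 100 ppm CO2, 21.3-fold lower (18.4 to 24.7). GOLS1 (AT2G47180), which is induced by heat and drought, was at 48.4 RPKM at 380 ppm CO2 and 3.05 RPKM at 100 ppm. It was 15.8-fold lower (12.4 to 20.5). In the downward order of log2 differences GOLS2 ranked number 34 and GOLS1 number 77 of the 16563 genes.

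GOLS3 (AT1G09350), the cold-induced galactinol synthase, was at 22.1 RPKM at 380 ppm CO2 and 6.47 RPKM at 100 ppm. It was 3.42-fold lower (2.84 to 4.14), and its interval did not reach that of GOLS1 or GOLS2. GOLS4 (AT1G60470) was near the limit of the data, with 13 reads at 380 ppm CO2 and 1 read at 100 ppm, the latter under the floor of 3 reads. Its ratio of 0.0894 had an interval of 0.0021 to 0.595, and it was 0.51 RPKM at 380 ppm CO2 and 0.0456 RPKM at 100 ppm. It lay on the same side as the other 3 galactinol synthases, but its size is poorly fixed.

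**Figure D2:**
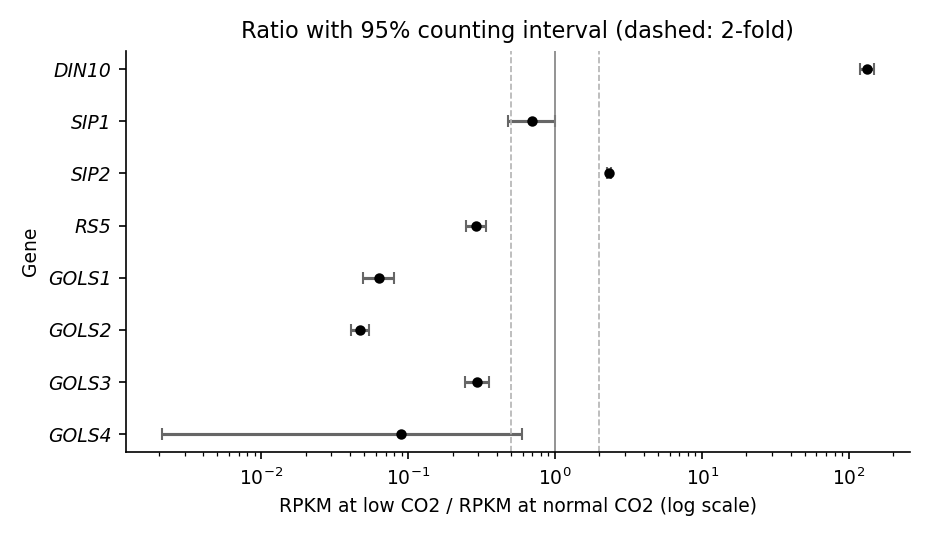
Ratio of RPKM at low CO2 to RPKM at normal CO2 on a log axis, with the 95% interval from the reads behind each value, for 8 genes (STS, under the floor in both columns, is left out). Dashed lines mark 2-fold, and GOLS4, with 13 reads and 1 read, has by far the widest interval.

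By a size rule of 2-fold on the log2(RPKM + 1) scale, which understates differences of low genes, 7 of the 9 members were counted, their mean reaching 1 RPKM. Of these, 2 were higher at low CO2, DIN10 and SIP2, beside 6.07% of all 16563 counted genes. RS5, GOLS1, GOLS2 and GOLS3 were the 4 that were lower, beside 11.1% of all counted genes. SIP1 lay within 2-fold, and STS and GOLS4 were not counted. The median log2 difference of the 7 counted members was -1.58 and that of all counted genes was -0.06. Since these values were known when the members were picked, nothing is read from these counts against the background.

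**Figure D3:**
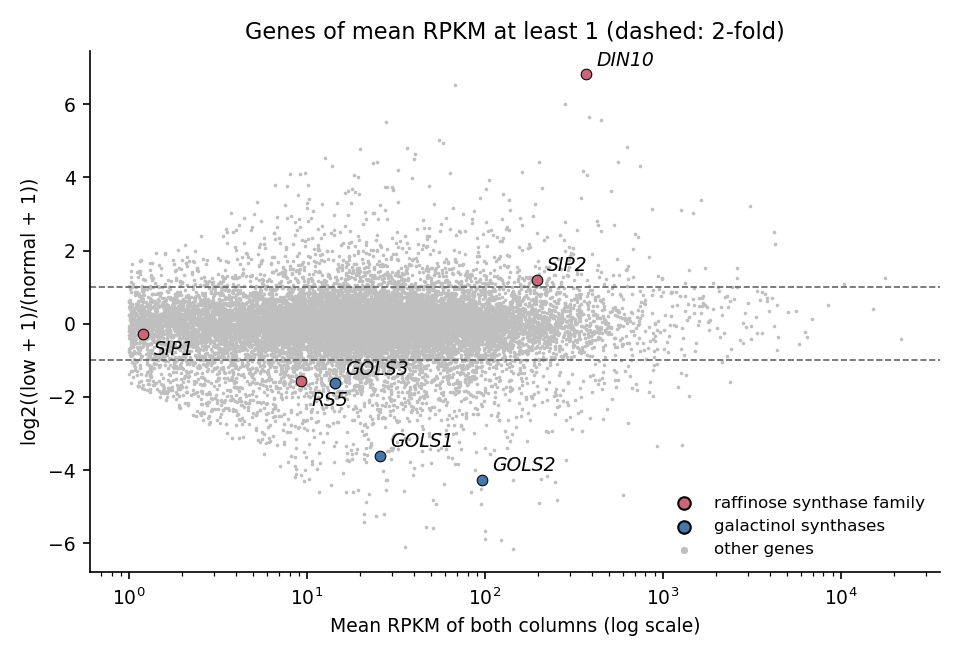
Log2 difference, low over normal CO2 with 1 RPKM added to each, against the mean RPKM of both columns on a log axis, for the 16563 genes whose mean reached 1 RPKM (grey) and the 7 counted members (coloured). DIN10 is at the top of the plot at 6.81, and GOLS2 at -4.26 and GOLS1 at -3.61 are near its lower edge.

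The order of the members by level differed between the columns. At normal CO2 GOLS2 was the most abundant member, followed by SIP2, GOLS1, GOLS3, RS5, DIN10, SIP1, GOLS4 and STS, and no neighbours in that order had overlapping counting intervals. At low CO2 DIN10 came first and SIP2 next, both far above the rest. GOLS2 (interval 7.45 to 9.96 RPKM) and GOLS3 (5.45 to 7.63 RPKM) overlapped there, as did RS5 (3.62 to 4.76 RPKM) and GOLS1 (2.38 to 3.87 RPKM), and GOLS4 and STS at the bottom.

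Within the raffinose synthase family the leading gene was SIP2 at normal CO2 and DIN10 at low CO2. At normal CO2 SIP2 held 84.7% of the family's reads (exact interval 83.9 to 85.5%), RS5 10.4% (9.78 to 11.1%) and DIN10 3.86% (3.46 to 4.30%). At low CO2 DIN10 held 71.9% (71.5 to 72.3%), SIP2 27.6% (27.2 to 28.0%) and RS5 0.425% (0.37 to 0.486%). Without DIN10 the other 4 genes summed to 134.1 RPKM at 380 ppm CO2 and 279 RPKM at 100 ppm, a ratio of 2.08.

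GOLS2 held the largest share of the galactinol synthase reads at both CO2 levels, and a smaller one at low CO2. GOLS2 held 71.7% of the reads of GOLS1 to GOLS4 at normal CO2 (70.6 to 72.8%) and 47.3% at low CO2 (42.3 to 52.3%). The share of GOLS3 was 8.63% at normal CO2 (7.96 to 9.33%) and 35.3% at low CO2 (30.6 to 40.2%). The share of GOLS1 was 19.4% (18.5 to 20.4%) and 17.2% (13.6 to 21.2%), with overlapping intervals. By summed RPKM the galactinol synthases were 1.82 times the raffinose synthase family at normal CO2, while at low CO2 the raffinose synthase family was 55.7 times the galactinol synthases.

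**Figure D4:**
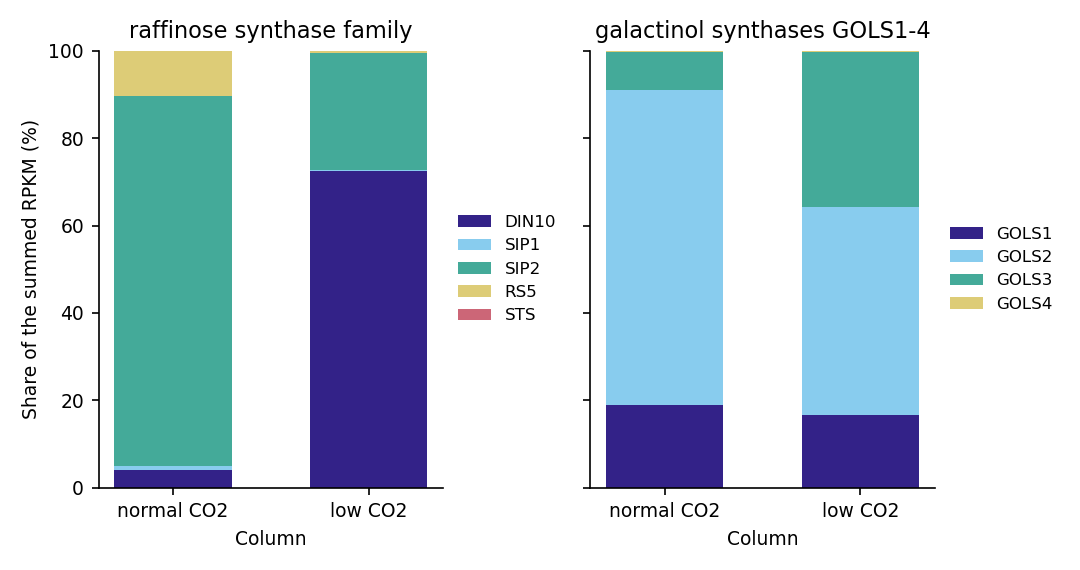
Share of the summed RPKM (%) taken by each gene in the raffinose synthase family (left) and in GOLS1 to GOLS4 (right), with 1 bar per CO2 level. SIP2 fills most of the left bar at normal CO2 and DIN10 most of it at low CO2, and on the right GOLS3 has a larger share at low CO2.

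The coding sequences of the members were compared, because reads from near-identical copies could be split by the counting. In the raffinose synthase family the 10 pairs were 57.0 to 64.8% identical over the aligned coding bases, and no pair shared an exact run longer than 21 bases. The galactinol synthases were closer, with 70.7 to 83.3% identity, highest for GOLS2 and GOLS3, which shared an exact run of 26 bases. The transcribed spans of DIN10, GOLS1 and GOLS4 overlap a gene on the opposite strand, by 82, 43 and 33 bases, and none of these bases is coding in the member. Beside GOLS1 that neighbour, AT2G47170, was at 473 RPKM at 380 ppm CO2 and 409 RPKM at 100 ppm, and the part of its reads in the value of GOLS1 was not tested.

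Myo-inositol, the acceptor that galactinol synthase uses, was looked at next. Of 13 listed genes of myo-inositol supply and use 12 were in the table and 10 were counted, of which 1 passed 2-fold upward at low CO2, 2 passed it downward and 7 passed in neither direction. Over all counted genes the shares were 6.07% upward and 11.1% downward, and with lists this short nothing is read from the counts. The 2 lower genes encode inositol phosphate synthase, which makes the inositol backbone from glucose 6-phosphate. MIPS1 stood at 544 RPKM at 380 ppm CO2 and 73.4 RPKM at 100 ppm, 7.41-fold lower (7.11 to 7.73). MIPS2 stood at 199.9 RPKM and 33.7 RPKM, 5.92-fold lower (5.56 to 6.31).

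MIPS3, named after its values were seen, differed from its sister genes with 25.4 RPKM at 380 ppm CO2 and 31.4 RPKM at 100 ppm, a ratio of 1.23 (1.13 to 1.35). Summed over the 3 genes, inositol phosphate synthase was 5.56-fold lower at low CO2. MIOX2, an inositol oxygenase that breaks myo-inositol down, was the higher gene, at 0.703 RPKM and 9.03 RPKM and 12.8-fold higher (7.81 to 22.5). MIOX4, another oxygenase gene, named after its values were seen and below the mean of 1 RPKM, lay on the other side with 42 reads at 380 ppm CO2 and 1 read at 100 ppm, a ratio of 0.0277 (0.000684 to 0.163). The median log2 difference of the list was -0.20.

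Genes that supply UDP-glucose and UDP-galactose, the galactose donor, lay on both sides. Of 6 counted genes of 8 listed, 2 passed 2-fold upward, 1 passed it downward and 3 in neither direction, beside 6.07% upward and 11.1% downward over all counted genes. Their median log2 difference was -0.05. UGP1 and UGP2 both encode UDP-glucose pyrophosphorylase and differed in direction. UGP1 was at 197 RPKM at 380 ppm CO2 and 87.6 RPKM at 100 ppm, 2.25-fold lower (2.15 to 2.35), and UGP2 was at 20.6 RPKM and 49.9 RPKM, 2.42-fold higher (2.20 to 2.67). The epimerase gene UGE3 was at 4.22 RPKM and 13.2 RPKM, 3.14-fold higher (2.52 to 3.93), but just inside 2-fold on the log2 scale with a pseudocount of 5 (0.98). UGE1, UGE5 and MIOX1 were not analysed here.

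None of the 5 genes of galactose release and salvage passed 2-fold, beside 6.07% upward and 11.1% downward over all counted genes. With 5 genes nothing is read from this count. Their median log2 difference was -0.10. AGAL3, listed in the reference as a melibiase family gene, was the most abundant of them at 91.1 RPKM at 380 ppm CO2 and 74.8 RPKM at 100 ppm, a ratio of 0.821 (0.775 to 0.869). SIP2, the gene of an alkaline alpha-galactosidase, was above AGAL3 at both CO2 levels.

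Of the other 6 genes placed beside the galactinol synthases only GATL10 was counted. The reference names it galacturonosyltransferase-like, and it was at 8.98 RPKM at 380 ppm CO2 and 3.88 RPKM at 100 ppm, 2.31-fold lower (1.82 to 2.97), but within 2-fold on the log2 scale under both scalings (-0.94 after median scaling and -0.89 after quantile normalization). GOLS5 had 0 reads at 380 ppm CO2 and 3 reads at 100 ppm, GOLS6 had 1 read in each column, GATL4 had 21 reads and 5 reads, and GOLS7 and GOLS10 were listed at 0 in both. Among the genes listed here under a GOLS name, GOLS1 to GOLS3 thus carried nearly all of the reads in both columns. GATL10 is not among these. At 100 ppm CO2 it had 3.88 RPKM from 93 reads, and GOLS1 had 3.05 RPKM (2.38 to 3.87) from 69 reads. No interval was made for the level of GATL10, so their order was not tested.

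Of 11 listed transcription factors of heat, cold and abscisic acid responses, 10 were counted. Of these 2 passed 2-fold downward, 0 upward and 8 in neither direction, beside 11.1% downward and 6.07% upward over all counted genes. The median log2 difference was -0.41, and that of all counted genes -0.06. ABF3, an abscisic acid response factor, was at 94.7 RPKM at 380 ppm CO2 and 21.2 RPKM at 100 ppm, 4.47-fold lower (4.10 to 4.87). CBF3, a cold response factor, was at 2.43 RPKM and 0.564 RPKM, 4.30-fold lower (1.99 to 10.6) from 40 reads and 8 reads. CBF3 lay within 2-fold on the log2 scale after quantile normalization (-0.97) and with a pseudocount of 5 (-0.42). HSFA2, a heat shock factor below the mean of 1 RPKM and named after its values were seen, had 44 reads at 380 ppm CO2 and 1 read at 100 ppm, a ratio of 0.0264 (0.000654 to 0.155). DREB2A, HSFA3 and HSFA1A, also named after their values were seen, lay on the other side. Their ratios were 1.60 (1.18 to 2.19), 1.39 (0.898 to 2.16) and 1.07 (0.967 to 1.18), all within 2-fold on the log2 scale. The other counted factors had ratios below 1.

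DIN10 was last set beside the other dark-inducible genes. Of 7 listed genes 5 were counted, of which 2 passed 2-fold upward, 0 downward and 3 in neither direction, beside 6.07% upward and 11.1% downward over all counted genes. Their median log2 difference was 0.88. SEN1 was 6.03-fold higher (5.43 to 6.70) and ASN1, an asparagine synthetase gene, 8.19-fold higher (5.16 to 13.6), both far short of DIN10. With a pseudocount of 5 the log2 difference of ASN1 was 0.70, inside 2-fold. BGLU30, named after its values were seen and not counted, lay on the other side with 67 reads at 380 ppm CO2 and 2 reads at 100 ppm, a ratio of 0.0347 (0.00412 to 0.130). The name of the group thus covered genes on both sides in these columns.

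**Figure D5:**
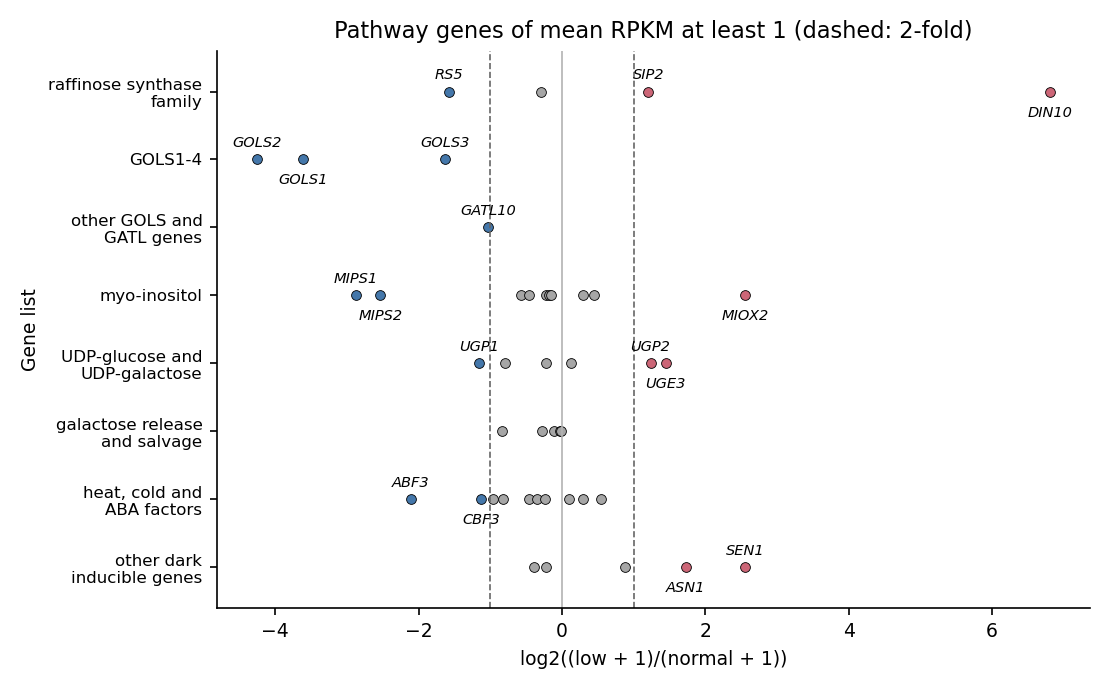
Log2 difference, low over normal CO2 with 1 RPKM added to each, for the counted genes of 8 gene lists, with those at least 2-fold higher in red, those at least 2-fold lower in blue and the rest in grey. GOLS1, GOLS2, MIPS1 and MIPS2 lie farthest to the left, and DIN10 lies farthest to the right at 6.81.

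The genes nearest to DIN10 were ranked by the distance between log2(RPKM + 1) values over the 2 columns, a likeness that rests on 2 values per gene. The nearest was AT5G62360, an invertase and pectin methylesterase inhibitor family gene, at 7.81 RPKM at 380 ppm CO2 and 560 RPKM at 100 ppm (distance 0.58). GASA6, a gibberellin-regulated gene, followed at 14.3 RPKM and 760 RPKM (1.22), and AT4G21870, an HSP20-like gene, at 17.9 RPKM and 887 RPKM (1.55). AT3G15630 (1.73) and the basic helix-loop-helix gene HBI1 (1.89) came next, and each was lower in ratio than DIN10, at 22.8-fold and 18.6-fold higher.

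The depths, estimated from the RPKM values, were 25429325 reads at 380 ppm and 21887516 reads at 100 ppm CO2. At these depths 1 read on DIN10 is worth 0.0175 RPKM and 0.0203 RPKM. The leaf genes RBCS1A and RCA stood at 6572 RPKM or more in both columns, and the seed storage genes CRA1 and CRC were listed at 0.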

How the data were processed

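RNA sequencing of whole leaves gave 6 samples, 3 per CO2 level. The authors deposited RPKM values in 1 column per CO2 level, per the file headers, and FastQC, TopHat and Cufflinks are named in the submitters' processing notes without versions. Build, annotation, strand use and whether replicates were pooled are not given in the sources used here, so a column is taken as the authors' value for its group. Whole reads at 1 depth per column, as recovered below, are what a count of 1 library or of pooled reads gives. A mean of replicate RPKM values at unlike depths would not give them. Each column may thus be 1 library, and which of these it is was not tested.

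Whole reads were recovered from each RPKM value with the RefSeq (TAIR10.1) coding length less the 3 bases of the stop codon. The depth of each column was estimated from the spacing of its RPKM values. This gave whole numbers, within 0.0001 reads, for 20247 (96.4%) of the 21010 genes that were not at 0 in both. All 9 members were among them. With the stop codon kept the share was 1.47%. The depths were fitted without the stop codon and not refitted for it, so the 1.47% is no separate check. The step was tested on simulated data for genes with a single coding length. The choice among several lengths of a gene was not tested. Ratios are of RPKM, low over normal CO2, with exact 95% Clopper-Pearson intervals from the reads (scipy 1.17.1). Intervals of levels are exact Poisson intervals of the reads, and those of shares exact Clopper-Pearson intervals.

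A limma test planned for columns of single replicates could not be made. In its place, genes whose mean reached 1 RPKM were called higher or lower at 2-fold on the log2(RPKM + 1) scale. The 9 members and 8 gene lists (59 entries, of which 57 have the name used here in the reference) were chosen, like the motifs, with earlier results of these data known. AT3G06260 was planned under the name GATL9 and is called GATL4 here, its name in the reference. The rule for named genes took all members, every list entry past 2-fold or else the most abundant counted entry, and the 5 genes nearest to DIN10. Genes named outside it (MIPS3, MIOX4, HSFA2, DREB2A, HSFA3, HSFA1A, BGLU30, and the uncounted GOLS and GATL genes) were chosen after their values were seen. Coding sequences were aligned globally with Biopython 1.88. Alternatives were pseudocounts of 0.1 and 5, no filter and a minimum mean of 5 RPKM, median scaling, quantile normalization and recovered reads scaled to their own total.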

Additional observations from a re-analysis of the deposited data

How the results depend on the processing

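Over 45 combinations of a member and an alternative (5 alternatives for each of the 9 members), no log2 difference turned its direction and 1 crossed 2-fold, GOLS4 at -2.07 with a pseudocount of 0.1. DIN10 ranged from 6.13 to 7.02, SIP2 from 1.18 to 1.31, RS5 from -1.76 to -1.08, GOLS1 from -3.94 to -2.73, GOLS2 from -4.39 to -3.79 and GOLS3 from -1.76 to -1.24. In each of the 7 alternatives 2 members passed 2-fold upward and 4 downward. The count of all genes at least 2-fold lower was 1175 with a pseudocount of 5, against 1834, since a larger pseudocount shrinks the differences of low genes. The log2 ratio of the summed raffinose synthase family was 2.96 after median scaling, against 2.86. Quantile normalization moved the median of all genes by 0.11. Among 37 other pathway genes, an alternative added after seeing the data, 5 crossed 2-fold under some setting, namely CBF1, GATL10, UGE3, CBF3 and ASN1. The direction turned in 5 of 185 combinations of these pathway genes and an alternative. All of these were of AGAL1, AGAL2 or GALK, whose main log2 differences were small (-0.03, -0.01 and -0.10). No paired analysis was possible because the table holds 1 column per CO2 level and no column of a single replicate, and for the same reason no replicate could be left out. Depth limits STS and GOLS4, with at most 13 reads in a column.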
